A study of Mus musculus with 9 samples.

Results

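The 9 nuclear genes followed here encode chaperones, proteases and import motor proteins of the mitochondrial matrix, measured in ovaries of adult mice: Hspd1, Hspe1, Hspa9, Grpel1, Dnaja3, Trap1, Lonp1, Clpp and Clpx. They were picked by symbol, as 9 of the 54838 genes in the deposited table, and all 9 passed the filter on low values (18889 genes in all). The ovaries were taken 40 h after pregnant mare serum gonadotropin (PMSG), a hormone preparation that drives follicle growth, and every group had this treatment. Each of 3 genotypes gave 3 RNA-seq libraries. They were the WT, the double knockout labelled DKO LXR (DKO), where LXR are the liver X receptors, nuclear receptors activated by oxysterols, and the same double knockout labelled with the transgene TG-AMH-LXRb (DKO_TG). DKO_TG thus carries the DKO LXR genotype too. The labels name Amh, a gene of growing-follicle granulosa cells, and LXRb in the transgene, and say nothing more of its promoter, of the cells that express it, or of the number of lines or animals. Whether libraries of 1 group came from different mice is not stated, so the p-values cover the spread between libraries only.

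The question was whether a high level of Hspd1 in DKO_TG was shared by other mitochondrial stress genes. Hspd1 was the gene that raised this question through its own values, so it is described here without a test, and counts run over the other 8 genes.

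Most mitochondrial proteins are made in the cytosol and threaded through the TOM and TIM complexes of both mitochondrial membranes. Hspa9 (mortalin, the matrix HSP70) pulls the chain in, with Grpel1 as its nucleotide exchange factor. Dnaja3 is a J-domain partner of Hspa9 in the matrix. The Hspd1 ring (HSP60) and its lid Hspe1 (HSP10) then fold many of the arrivals. Trap1 is the HSP90 of the matrix, Lonp1 is an ATP-driven protease, and Clpp is a protease chamber that is fed by the unfoldase Clpx. In the mitochondrial unfolded protein response, damage to matrix protein folding raises transcription of such genes, and in mammals it is accompanied by the integrated stress response. In the ovary, steroid-producing cells start steroid synthesis inside mitochondria.

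Hspd1 and Hspe1 lie head to head. On mm10, Hspd1 spans chr1:55077835-55088243 on the minus strand and Hspe1 spans chr1:55088132-55091307 on the plus strand, and their annotated exons share 112 bases. The start-site windows of this pair are shown because both had the largest differences among the 9 in DKO_TG against DKO and in DKO against WT, and that of Clpx because it moved the other way between DKO and WT. The sequences are RefSeq windows on GRCm38.p6 (the assembly behind mm10), from 250 bases before to 50 bases after the start site. Windows of 8 of the 9 genes were searched, and Hspa9 was left out of this search. Capitals mark matches, on either strand, to the heat shock element TTCNNGAA and its other phase GAANNTTC, the CHOP element TGCAAT and the CCAAT box.
Hspd1, chr1:55088194-55088493, minus strand: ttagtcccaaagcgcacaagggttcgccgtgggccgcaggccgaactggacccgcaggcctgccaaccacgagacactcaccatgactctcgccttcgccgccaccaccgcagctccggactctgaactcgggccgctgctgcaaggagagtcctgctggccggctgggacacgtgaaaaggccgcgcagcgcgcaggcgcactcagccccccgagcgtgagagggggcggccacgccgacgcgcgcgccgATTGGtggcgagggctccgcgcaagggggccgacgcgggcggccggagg
Hspe1, chr1:55087898-55088197, plus strand: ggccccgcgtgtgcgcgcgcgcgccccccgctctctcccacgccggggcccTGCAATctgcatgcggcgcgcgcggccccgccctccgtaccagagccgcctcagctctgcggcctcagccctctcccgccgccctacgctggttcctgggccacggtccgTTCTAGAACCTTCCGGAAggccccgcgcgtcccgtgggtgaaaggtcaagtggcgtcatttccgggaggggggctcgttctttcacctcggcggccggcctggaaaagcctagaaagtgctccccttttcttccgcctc
Clpx, chr9:65294010-65294309, plus strand: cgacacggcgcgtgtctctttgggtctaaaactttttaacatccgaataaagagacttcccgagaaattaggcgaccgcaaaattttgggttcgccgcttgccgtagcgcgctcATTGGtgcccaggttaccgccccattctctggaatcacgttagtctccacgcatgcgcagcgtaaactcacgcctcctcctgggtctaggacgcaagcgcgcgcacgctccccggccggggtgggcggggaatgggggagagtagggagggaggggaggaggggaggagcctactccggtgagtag

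The Hspe1 window, which lies within the annotated Hspd1 gene, held the run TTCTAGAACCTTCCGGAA. In it the heat shock element matched at -89 and -79 from the Hspe1 start and the overlapping other phase at -84. A CHOP element matched at -199. The same run appeared in a second annotated Hspd1 window (chr1:55087883-55088182). Of 32851 windows of this length, 8.52% held TTCNNGAA, 7.86% held GAANNTTC and 8.40% held TGCAAT. Among the other members searched, which leaves out Hspa9, the heat shock element matched only in the Clpp window. That match was at 34, where the window is already transcribed. The Clpx window held a CCAAT box at -136, a motif in 37.4% of windows. The Trap1 window held the cyclic AMP response element TGACGTCA at -47, a motif in 1.79% of windows. None of the 9 windows searched held TGATGNAA, the ATF4 element, which 3.97% of all windows held. These matches are letters in a window, and no binding was measured.

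The libraries held 40.14 M to 59.39 M recovered reads. Nr1h2, which encodes LXRb, had 22.5, 18.7 and 15.2 RPKM (reads per kilobase of exon, scaled to the reads of the library) in the WT libraries, 7.79, 6.02 and 5.79 in those of DKO and 5.14, 5.96 and 5.90 in those of DKO_TG. The LXRa gene, Nr1h3, had 5.47, 4.12 and 4.45 RPKM in the WT libraries, 0.590, 1.11 and 0.717 in those of DKO and 0.538, 0.824 and 0.647 in those of DKO_TG. Both receptors were thus low in all 6 knockout libraries. Nr1h2 in the libraries labelled as transgenic was not above DKO (log2 difference -0.18, adjusted p = 0.621), so these values do not show the transgene, and whether its RNA would be counted on Nr1h2 is not known. Among WT, replicate 1 stood apart: it was the highest WT library for 8 of the 9 genes, and the library size behind its RPKM was 0.793 of its reads against 0.92 and 0.9 in replicates 2 and 3. DKO replicate 2 was likewise the highest DKO library for 8 of the 9. Nuclear-retained RNAs set WT apart from the rest as well. Malat1 averaged 7.38 RPKM in the WT libraries, 199 in those of DKO and 261 in those of DKO_TG. Of 6 such RNAs listed, Kcnq1ot1 stayed under 0.5 RPKM in every library. Of the 5 tested, 4 were called higher in DKO than in WT, against 30.8% of all genes. The part of this difference in nuclear-retained RNAs in the values against WT was not tested.

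Hspd1, the chaperonin ring, had 1016, 757 and 658 RPKM in the WT libraries, 237, 300.4 and 209 in those of DKO and 688, 682 and 654 in those of DKO_TG. DKO was the low group, and DKO_TG overlapped the lower part of WT. On means, DKO_TG was at 2.71 times DKO (675 ± 18.4 against 249 ± 46.7, SD, n = 3), and DKO was at 0.307 times WT (810.3 ± 185). As a log2 difference, DKO_TG minus DKO was 1.45, DKO minus WT was -1.69 and DKO_TG minus WT was -0.24. Hspd1 was chosen by these values, so they are a description only. As deposited, then, Hspd1 in the libraries labelled DKO_TG was high against DKO and not above WT. The second part depended on scaling: DKO_TG minus WT was 0.29 with TPM, 0.03 with the plain total of reads and 0.40 with quantile normalization. DKO_TG minus DKO was 1.43, 1.40 and 1.39 under these.

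Hspe1, the lid of the chaperonin, had 475, 309 and 255 RPKM in the WT libraries, 106, 174 and 115 in those of DKO and 305, 327 and 292 in those of DKO_TG. Every DKO library was below every other library. Hspe1 rose in DKO_TG against DKO by 1.26 ± 0.25 on the log2 scale (SE, 95% interval 0.68 to 1.83, limma adjusted p = 0.0453), or 2.34 times on means. It fell in DKO against WT by 1.38 (adjusted p = 0.00198), and DKO_TG minus WT was -0.12 (-0.69 to 0.45, adjusted p = 0.713). The call against DKO was close to the threshold. Over 22 alternative settings its adjusted p ran from 0.00489 to 0.157 and 12 kept the call. It was lost without DKO replicate 1 (0.0884) or 3 (0.107), without DKO_TG replicate 1 (0.130), 2 (0.157) or 3 (0.144), and without WT replicate 2 (0.0791) or 3 (0.0509). The ratio of Hspe1 to Hspd1 RPKM averaged 0.421 ± 0.0417 in WT, 0.526 ± 0.0684 in DKO and 0.456 ± 0.0199 in DKO_TG, and the 3 groups overlapped.

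**Figure D1:**
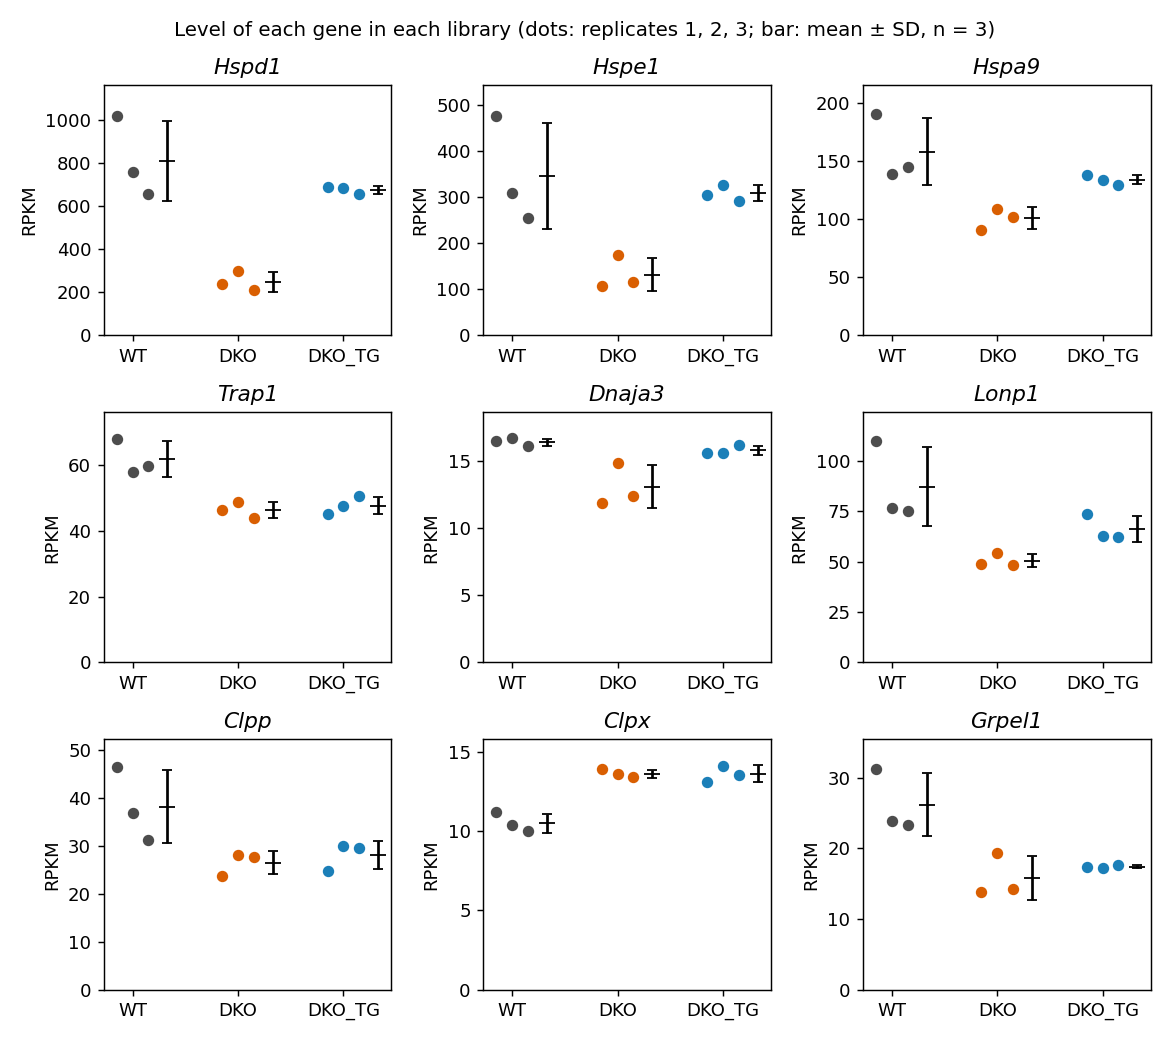
RPKM (vertical axes, from 0) of each of the 9 genes in the 9 libraries; dots are replicates 1, 2 and 3 from left to right in each genotype and the bars are mean ± SD. Hspd1 and Hspe1 are low in DKO and overlap WT in DKO_TG, Trap1, Clpp and Grpel1 in DKO_TG overlap DKO, and Clpx is higher in both knockout groups than in WT.

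Hspa9, the import motor, had 191, 139 and 145 RPKM in the WT libraries, 90.5, 109 and 102 in those of DKO and 138, 134 and 129.6 in those of DKO_TG. No 2 groups overlapped, and DKO_TG lay between the others. DKO_TG minus DKO was 0.41 on the log2 scale (0.10 to 0.73, adjusted p = 0.195), which did not pass the test. Hspa9 fell in DKO against WT by 0.64 (adjusted p = 0.00463), and DKO_TG minus WT was -0.23 (adjusted p = 0.201).

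Grpel1, the exchange factor of that motor (chr5:36464998-36474080, plus strand), had 31.3, 23.9 and 23.3 RPKM in the WT libraries, 13.8, 19.4 and 14.2 in those of DKO and 17.3, 17.2 and 17.6 in those of DKO_TG. The DKO_TG values lay inside the DKO range. Grpel1 fell in DKO against WT by 0.71 (adjusted p = 0.00412) and in DKO_TG against WT by 0.57 (adjusted p = 0.0134). DKO_TG minus DKO was 0.15, with an interval from -0.20 to 0.49.

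Dnaja3, a J-domain partner of Hspa9 (chr16:4639989-4707695, plus strand), had 16.5, 16.7 and 16.1 RPKM in the WT libraries, 11.9, 14.9 and 12.4 in those of DKO and 15.6, 15.6 and 16.2 in those of DKO_TG. DKO was again the low group and the other groups overlapped. The difference between DKO_TG and DKO was 0.27 (0.06 to 0.48, adjusted p = 0.196). Dnaja3 fell in DKO against WT by 0.33 (adjusted p = 0.0157), and DKO_TG minus WT was -0.05 (-0.26 to 0.16).

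Trap1, the matrix HSP90 (chr16:4039971-4077827, minus strand), had 68.0, 58.0 and 59.7 RPKM in the WT libraries, 46.5, 48.9 and 43.9 in those of DKO and 45.2, 47.5 and 50.5 in those of DKO_TG. Both knockout groups lay below WT and overlapped each other. The difference between them was 0.04 on the log2 scale, and its interval (-0.18 to 0.26) excluded a change of the size seen for Hspe1. Trap1 fell in DKO against WT by 0.41 (adjusted p = 0.00645) and in DKO_TG against WT by 0.37 (adjusted p = 0.0112). The second call was lost without DKO_TG replicate 1 (adjusted p = 0.0512).

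Lonp1, the ATP-driven protease (chr17:56614297-56626887, minus strand), had 109.6, 76.4 and 75.1 RPKM in the WT libraries, 48.8, 54.1 and 48.5 in those of DKO and 73.6, 62.7 and 62.1 in those of DKO_TG. The 3 groups did not overlap, with DKO_TG in the middle. DKO_TG minus DKO was 0.38 (0.04 to 0.73, adjusted p = 0.267), Lonp1 fell in DKO against WT by 0.76 (adjusted p = 0.00322), and DKO_TG minus WT was -0.38 (adjusted p = 0.0684).

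Clpp, the protease chamber (chr17:56990305-56996188, plus strand), had 46.4, 36.9 and 31.2 RPKM in the WT libraries, 23.7, 28.2 and 27.6 in those of DKO and 24.7, 30.0 and 29.5 in those of DKO_TG. The knockout groups overlapped, at a difference of 0.08 (-0.26 to 0.42). Clpp fell in DKO against WT by 0.50 (adjusted p = 0.0201) and in DKO_TG against WT by 0.42 (adjusted p = 0.0435). Leaving out WT replicate 1 (0.0534) or DKO replicate 1 (0.0631) ended the first call. The second was lost when WT replicate 1 (0.123) or 2 (0.0804), DKO replicate 2 (0.0509) or 3 (0.0541), or DKO_TG replicate 1 (0.146), 2 (0.0635) or 3 (0.0750) was left out.

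Clpx, the unfoldase that feeds Clpp (chr9:65294260-65330658, plus strand), went the other way. It had 11.20, 10.40 and 10.02 RPKM in the WT libraries, 13.87, 13.59 and 13.37 in those of DKO and 13.07, 14.13 and 13.47 in those of DKO_TG. All 6 knockout libraries were above all WT libraries and overlapped one another. Clpx rose in DKO against WT by 0.36 (adjusted p = 0.00392) and in DKO_TG against WT by 0.35 (adjusted p = 0.00460), and both calls held in all 22 alternatives. DKO_TG minus DKO was -0.01 (-0.18 to 0.16).

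**Figure D2:**
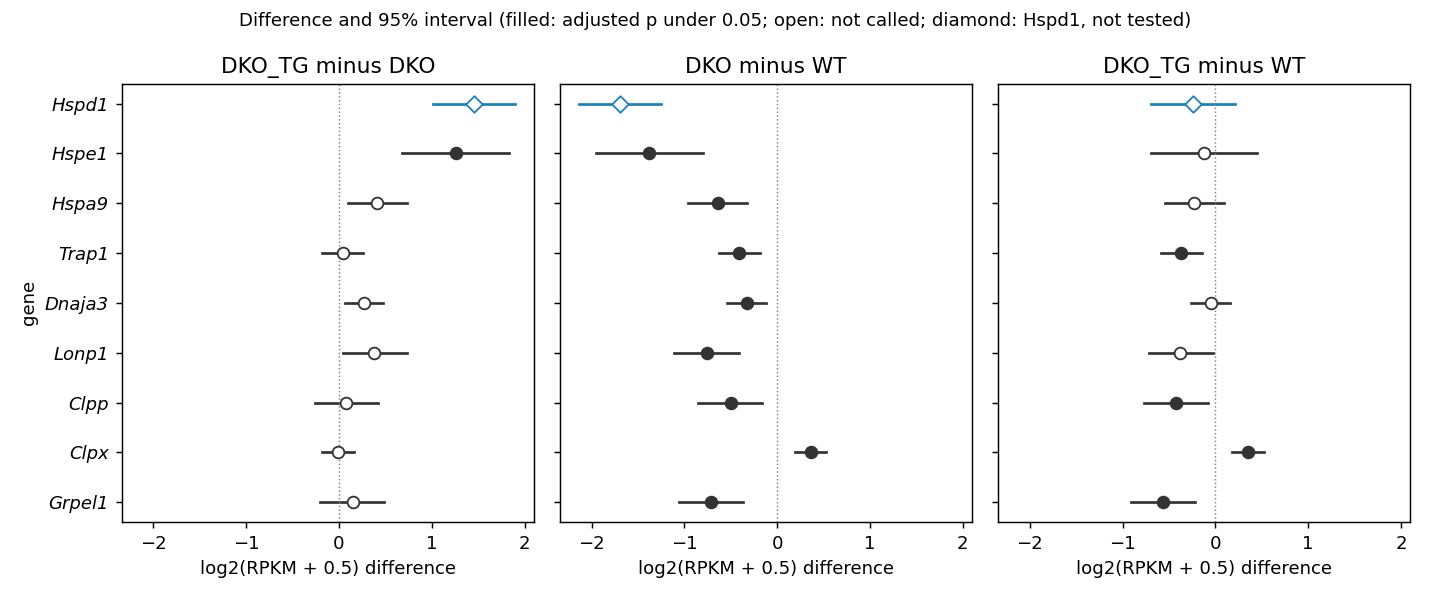
Difference in log2(RPKM + 0.5) (horizontal axes) for each gene with its 95% interval, in 1 panel for each comparison. Filled dots passed the test, open dots did not, and the diamond is Hspd1, which was not tested. Hspd1 was chosen by these values, so its interval is no test. In DKO_TG minus DKO the interval of Hspe1 lies near that of Hspd1, those of Hspa9, Dnaja3 and Lonp1 lie above 0 at smaller values, and those of Trap1, Clpp, Clpx and Grpel1 span 0.

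Across the 8 genes, 1 was called higher in DKO_TG than in DKO (Hspe1) and none lower, where 0.498% of all genes tested were called higher, 1.73% lower and 2.23% either way. Of the 8, 4 had an unadjusted p under 0.05. The share of all genes under that p was not computed, so such counts, here and below, have no baseline. The libraries of DKO_TG lay wholly above those of DKO for Hspe1, Hspa9, Dnaja3 and Lonp1, as they did for 12.1% of all genes. Their folds of means were 2.34, 1.33, 1.21 and 1.31, against 2.71 for Hspd1. The median log2 difference of the 8 was 0.21, against 0.03 over all genes.

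Between DKO and WT, 7 of the 8 fell as deposited and 1, Clpx, rose, although Trap1, Dnaja3 and Clpp lay above 0 with TPM and Hspa9 and Trap1 with quantile normalization. Of all genes, 25.9% were called lower, 30.8% higher and 56.7% either way. Calls against WT were thus common. The median of the 8 was -0.57, against 0.02 over all genes. The libraries did not overlap for any of the 8, where 28.6% of all genes lay wholly lower and 32.6% wholly higher. Without WT replicate 1 or DKO replicate 1, 6 of the 8 were called lower. Between DKO_TG and WT, 3 of the 8 fell (Trap1, Clpp and Grpel1) and Clpx rose, with 22.3% of all genes called lower, 29.1% higher and 51.4% either way. The median was -0.30, against 0.03. The DKO_TG libraries lay wholly below WT for Hspa9, Trap1, Lonp1, Clpp and Grpel1, as for 30.2% of all genes, and wholly above for Clpx, as for 35.6%. Without DKO_TG replicate 1, 1 of the 8 was called lower there. The DKO_TG against DKO and DKO against WT values share the DKO libraries, so a low DKO library enters both.

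The direction of several differences against WT depended on how libraries were scaled. Rescaled to TPM (the same sum in every library), the median of all genes moved from 0.02 to 0.52 for DKO minus WT, and 1 of the 8 was called lower (Hspe1). With the plain total of reads that median was 0.28, and 4 of the 8 were called lower. Over all genes, 5821 were called higher and 4889 lower as deposited, 10041 and 1062 with TPM, and 8241 and 2314 with the plain total. For DKO_TG minus WT the counts were 5491 and 4214 as deposited, 9776 and 991 with TPM, and 7483 and 2238 with the plain total. Between DKO_TG and WT, TPM called 4 of the 8 higher, near the 51.8% of all genes called higher, and none lower (5.25% of all genes). The plain total called none lower (11.8% of all genes). In absolute terms Trap1, Dnaja3 and Clpp were above 0 for DKO minus WT with TPM (0.14, 0.21 and 0.04). These scalings multiply each library by 1 factor, so apart from the pseudocount they cannot move a gene relative to the median of all genes. Quantile normalization can: relative to that median Hspa9 went from -0.66 to 0.07 and Trap1 from -0.42 to 0.12. With it 2 of the 8 were called lower in DKO against WT, where 25.0% of all genes were. Hspe1 and Clpx kept their DKO against WT calls under every scaling tried, and Hspe1 kept its call against DKO under all of these. With TPM and with quantile normalization Hspa9 was called higher in DKO_TG than in DKO as well (adjusted p = 0.0376 and 0.0326).

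The reads behind each value were many: 32003 to 123016 per library for Hspd1, 8006 to 32105 for Hspe1 and 10930 to 21957 for Lonp1, and the fewest, 1475 to 2600, for Clpp. The order of the levels per length changed little. In all WT and DKO_TG libraries it ran Hspd1, Hspe1, Hspa9, Lonp1, Trap1, Clpp, Grpel1, Dnaja3, Clpx. In DKO the first 6 kept their places, and Clpx overtook Dnaja3 in replicate 3 and both Dnaja3 and Grpel1 in replicate 1. Summed over the 9 genes, the level was 1273 to 1966 RPKM in the WT libraries, 587 to 763 in those of DKO and 1265 to 1329.5 in those of DKO_TG. Hspd1 supplied 51.7% to 53.1% of this sum in WT, 35.7% to 40.0% in DKO and 51.3% to 52.1% in DKO_TG. Since Hspd1 was chosen by its values, the sum and these shares partly repeat that choice. The ratio of Hspa9 to Hspd1 was 0.197 ± 0.0203 in WT, 0.412 ± 0.0675 in DKO and 0.198 ± 0.00161 in DKO_TG. The ratios of Trap1, Dnaja3, Lonp1, Clpp, Clpx and Grpel1 to Hspd1 were likewise highest in DKO, without overlap with either other group. Hspd1, the divisor, was low in DKO, so these ratios and that of Hspa9 repeat its choice and are a description only. Fewer cells of a type and less RNA per cell cannot be told apart in such whole-ovary RNA.

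Within genotypes, too, the genes varied with Hspd1. After subtracting each group's mean, the correlation with Hspd1 over the 9 libraries was 0.95 for Hspe1, 0.92 for Grpel1, 0.83 for Lonp1, 0.77 for Hspa9, 0.75 for Trap1, 0.67 for Clpp, 0.65 for Clpx and 0.57 for Dnaja3. The values of 1 library share its scaling, and WT replicate 1 and DKO replicate 2 were high for most of these genes.

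Chaperonin genes have many processed pseudogenes, and reads can fall on either. Annotated pseudogenes with at least 90% identity over at least 100 bases numbered 8 for Hspd1, 4 for Hspe1, 1 for Hspa9 and 1 for Clpx, and none were found for the other 5. Hspd1-ps3, which is 99% identical to Hspd1 over 1722 bases, had 605, 456 and 401 RPKM in the WT libraries, 144, 168 and 122 in those of DKO and 407, 399 and 386 in those of DKO_TG, again lowest in DKO. It is named after its values were seen. The copies of Hspd1 took 31.6% to 32.7% of the reads counted on Hspd1 and its copies together, in every library alike. The shares were 7.5% to 8.9% for Hspe1, 3.6% to 4.1% for Hspa9 and 2.3% to 3.2% for Clpx. The levels of these 4 genes are uncertain for this reason, and adding the copies raises them by more than these shares. Hspd1 in WT replicate 1 went from 1016.45 to 1496.0 RPKM. The differences between groups were the same with the copies added in direction and call. Hspd1 and Hspe1 overlap on opposite strands over 4.2% and 7.6% of their exon bases. Grpel1 overlaps Tada2b over 11.6%, Dnaja3 overlaps Coro7 over 3.9% and Vasn over 4.1%, and Trap1 overlaps Dnase1 over 2.1%. Whether counting used the strand is not given in the sources used here, so part of these genes' reads may belong to the partner.

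**Figure D3:**
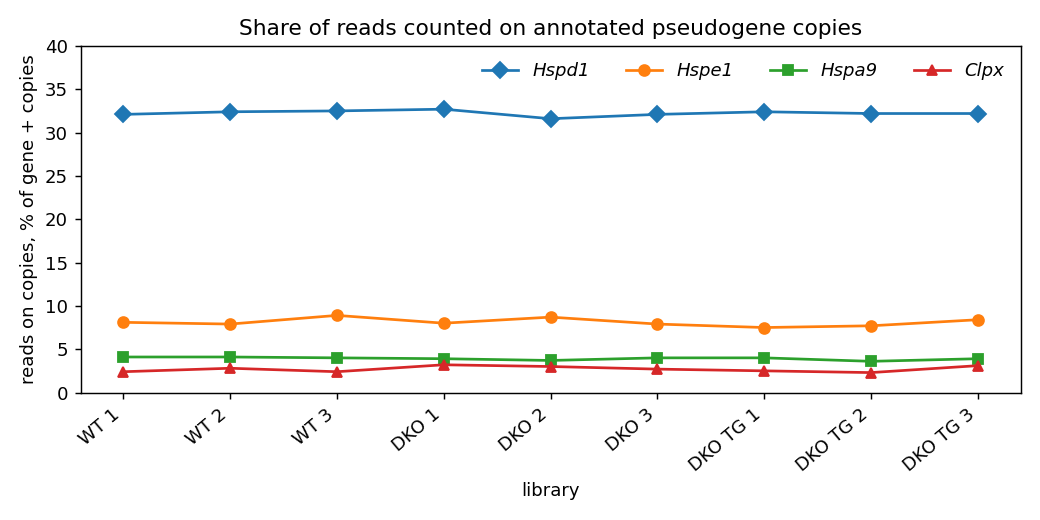
Share of reads counted on annotated pseudogene copies (vertical axis, percent of reads on the gene and its copies together) in each of the 9 libraries, for the 4 genes with copies. The share is 31.6% to 32.7% for Hspd1 and at most 8.9% for the others, and no genotype stands apart.

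The 6 lists of related genes, chosen with earlier results known, were read against DKO first. Of 37 tested genes of mitochondrial protein import, none were called in either direction in DKO_TG against DKO, with 3 at an unadjusted p under 0.05 and a median of 0.11. Tomm20, a receptor of the outer membrane, had 33.2 ± 4.69 RPKM in the WT libraries, 26.7 ± 1.71 in those of DKO and 32.6 ± 1.82 in those of DKO_TG (0.28, adjusted p = 0.261). Timm17a, a subunit of the inner membrane channel, was at 0.32 (adjusted p = 0.262). Of 18 other proteases, prohibitins and chaperones of mitochondria, 1 fell and none rose (median 0.11). Hscb, a co-chaperone of iron-sulfur cluster assembly, had 8.31, 9.59 and 8.40 RPKM in DKO and 6.27, 6.36 and 6.43 in DKO_TG (-0.43, adjusted p = 0.0477). Of 21 alternatives, 5 kept this call, and it was lost without any single 1 of the 9 libraries (0.0517 to 0.170). Pitrm1, a peptidase that clears presequences, was at 0.30 (adjusted p = 0.124).

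The integrated stress response list had the widest spread. None of its 23 tested genes passed the test in DKO_TG against DKO. An unadjusted p under 0.05 was found for 10, and 22 lay above 0. The shares of all genes under that p and above 0 were not computed, so neither count has a baseline. The median was 0.47, against 0.03 over all genes. Mthfd2, an enzyme of mitochondrial folate metabolism, had 43.1, 26.8 and 28.2 RPKM in the WT libraries, 8.41, 16.1 and 11.8 in those of DKO and 27.4, 20.7 and 24.7 in those of DKO_TG (1.01, adjusted p = 0.0817). The DKO libraries lay below the rest, as for Hspd1. Sesn2, a stress-induced inhibitor of mTORC1 signalling, was at 0.47 (adjusted p = 0.0708). Chac1, a glutathione-degrading target of ATF4 that is named here after its values were seen, was at 1.51 (adjusted p = 0.0836), and Atf4, chosen likewise, at 0.53 (adjusted p = 0.253). With TPM, 2 of the 23 were called higher (Mthfd2 and Chac1), with quantile normalization 3 (these and Sesn2), with array weights 1 (Mthfd2) and without WT replicate 1, 1 (Chac1). The shares of all genes called higher under these settings were 0.371%, 0.731%, 0.588% and 0.588%, in that order.

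The remaining lists gave no call in DKO_TG against DKO as deposited, and 1 gene was called on each of 2 of them under another scaling. Of 29 cytosolic heat shock proteins and chaperonins, 2 had an unadjusted p under 0.05 (median 0.13). Hspa4, an exchange factor for HSP70, was at 0.28 (adjusted p = 0.134) and Hsp90aa1, the inducible cytosolic HSP90, at 0.30 (adjusted p = 0.245). Hspa1a and Hspa1b, the classical heat-inducible HSP70 genes, also named after their values were seen, were at 0.02 and 0.14. Of 17 chaperones and regulators of the endoplasmic reticulum, 3 had an unadjusted p under 0.05 (median 0.17). Among them were Dnajb11, a co-chaperone of BiP, at 0.28 (adjusted p = 0.194) and Xbp1, a transcription factor of that compartment's stress response, at -0.35 (adjusted p = 0.138). Xbp1 was called lower with quantile normalization (adjusted p = 0.0230) and with the plain total of reads (adjusted p = 0.0367), as were 2.53% and 2.46% of all genes. Of 23 mitochondrial content genes, 4 had an unadjusted p under 0.05 (median 0.14). Cycs, cytochrome c, was at 0.54 (adjusted p = 0.154; 0.0317, a call, with TPM) and Ndufs1, a complex I subunit, at 0.27 (adjusted p = 0.0871). The voom fit on recovered reads called none of the genes it tested on these 6 lists.

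**Figure D4:**
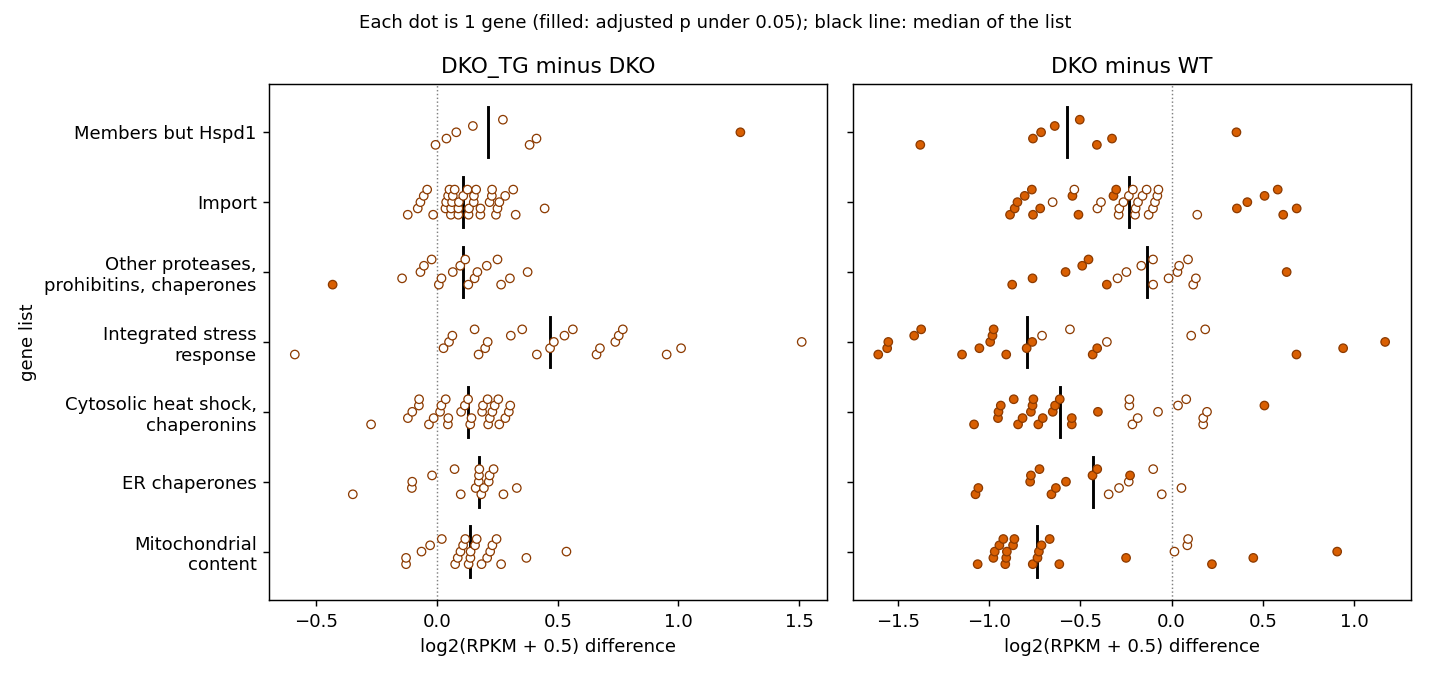
Difference in log2(RPKM + 0.5) (horizontal axes) of each tested gene in the 8 genes without Hspd1 and in the 6 lists, for DKO_TG minus DKO and DKO minus WT; filled dots passed the test and the black lines are list medians. Filled dots are nearly absent in the first panel and frequent on the lower side of the second.

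Against WT, more genes of every list were called lower than higher in DKO as deposited, an order that turned with TPM for import, other proteases, cytosolic chaperones and the endoplasmic reticulum, and with the plain total for other proteases. Counts of called genes were 6 higher and 11 lower for import, 1 and 6 for other proteases, 3 and 15 for the integrated stress response, 1 and 18 for cytosolic chaperones, 0 and 11 for the endoplasmic reticulum and 3 and 17 for mitochondrial content, of 37, 18, 23, 29, 17 and 23 genes tested. Of all genes tested, 30.8% were called higher and 25.9% lower, and the lower shares of import and of other proteases were near the latter. The medians were -0.23, -0.13, -0.79, -0.61, -0.43 and -0.73, against -0.57 for the 8 genes and 0.02 over all genes. Citrate synthase, Cs, fell by 0.90 (adjusted p = 8.50e-05). Among the import genes, Samm50, which inserts outer membrane barrels, fell by 0.86 (adjusted p = 0.000317), while Timm21, an inner membrane translocase subunit, rose by 0.69 (adjusted p = 0.000195). Clpb, a disaggregase, fell by 0.87 (adjusted p = 0.000750) and Afg3l1, a membrane protease subunit, by 0.58 (adjusted p = 0.000320). Tcp1 and Cct6a, subunits of the cytosolic chaperonin, fell by 1.08 and 0.95 (adjusted p = 0.000109 and 0.000247). Calr and Dnajb11 fell by 1.06 and 0.63 (adjusted p = 0.000299 and 0.000618), and the cystine transporter Slc7a11 by 1.15 (adjusted p = 0.000802). Ddit3, which encodes CHOP, rose by 1.17 (adjusted p = 4.54e-05), from 5.51 ± 0.375 RPKM to 13.1 ± 1.63, and was at 13.6 ± 0.844 in DKO_TG.

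These counts changed with scaling. With TPM they were 17 higher and 3 lower for import, 9 and 1 for other proteases, 5 and 8 for the integrated stress response, 6 and 5 for cytosolic chaperones, 3 and 1 for the endoplasmic reticulum and 7 and 10 for mitochondrial content, where 53.2% of all genes were called higher and 5.62% lower. With the plain total of reads they were 7 and 8, 6 and 3, 5 and 10, 3 and 14, 2 and 6, and 6 and 15, with 43.6% and 12.3% of all genes. With quantile normalization they were 6 and 9, 1 and 4, 4 and 14, 3 and 8, 3 and 3, and 3 and 11, with 4154 and 4726 of the 18889 genes. With TPM no list thus had a larger share called higher than all genes had. The medians with TPM were above 0 for import (0.29), other proteases (0.39) and the endoplasmic reticulum (0.12).

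Summed markers of some ovarian cell types differed between the groups, while the granulosa sums of all 3 overlapped. Of all genes tested, 30.8% were called higher and 25.9% lower in DKO against WT. The shares were 29.1% and 22.3% in DKO_TG against WT, and 0.498% and 1.73% in DKO_TG against DKO. The luteal share called lower in DKO against WT was near that of all genes. Summed macrophage markers ranged from 228 to 289 RPKM in the WT libraries, 328 to 651 in those of DKO and 207 to 260.1 in those of DKO_TG; 14 of 18 were called higher in DKO than in WT and 12 of 18 lower in DKO_TG than in DKO. Summed markers of other leukocytes were 3.27 to 4.55, 10.9 to 87.3 and 5.28 to 5.35 in the same order, and 6 of their 12 genes, Cd3e, Cd3g, Cd4, Cd8a, Ncr1 and Ms4a1, stayed under 0.5 RPKM in every library. Luteal markers summed to 1814 to 2266, 307 to 1544 and 1025 to 1958, with 3 of 12 called lower and 1 higher in DKO against WT and none called in DKO_TG against DKO. Theca and interstitial markers summed to 7906 to 11659.6, 6257 to 7388 and 8197 to 8890.1. Of these 12 genes, 5 were called higher and 2 lower in DKO against WT (median 0.01), and none were called in DKO_TG against DKO (median -0.04, 4 above 0). The theca sum was thus lowest in DKO while more of its genes were called higher than lower there. Granulosa markers summed to 2010.0 to 2829, 1387 to 2821 and 1966 to 2405, and none of 16 were called in DKO_TG against DKO. Oocyte markers summed to 37.3 to 73.3, 68.9 to 157 and 109 to 147, with 9 of 20 called higher in DKO and 12 of 20 in DKO_TG, both against WT. Endothelial markers summed to 212 to 246, 145 to 233 and 178 to 196, with 8 of 14 called lower and 2 higher in DKO against WT, 6 lower and 1 higher in DKO_TG against WT, and 1 lower in DKO_TG against DKO. Erythrocyte genes summed to 361 to 1657, 563 to 2414 and 198 to 285, and 3 of 5 were called lower in DKO_TG than in WT. The macrophage, other leukocyte and theca sums of DKO thus overlapped neither other group, and the luteal sum of DKO overlapped DKO_TG only. Their part in the results was not tested.

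Among 11398 tested protein-coding genes with a mean of at least 1 RPKM, those most like Hspd1 by Pearson correlation of log2 values over the 9 libraries were Mob4 (0.974), Lars (0.972), Gfm1 (0.967), Slc25a18 (0.964) and Lrrn3 (0.963). Among the members the same correlation was 0.98 for Hspe1, 0.93 for Hspa9, 0.91 for Dnaja3, 0.89 for Lonp1, 0.75 for Grpel1, 0.68 for Trap1, 0.66 for Clpp and -0.53 for Clpx. Lars, the cytosolic leucyl-tRNA synthetase, averaged 32.6 ± 3.24 RPKM in the WT libraries, 17.6 ± 1.77 in those of DKO and 28.2 ± 1.37 in those of DKO_TG. Gfm1, a mitochondrial translation elongation factor, averaged 11.6 ± 0.196, 8.67 ± 0.879 and 11.3 ± 0.267. Slc25a18, a mitochondrial glutamate carrier, averaged 7.46 ± 1.18, 3.34 ± 0.447 and 6.49 ± 0.795. The genes most like the mean of the other 8 were Akr1b8 (0.984), Pno1 (0.982), Alas1 (0.982), Yipf5 (0.978) and Pgam1 (0.978). Alas1, the first enzyme of heme synthesis in mitochondria, averaged 195 ± 119 RPKM in the WT libraries, 27.8 ± 8.65 in those of DKO and 96.5 ± 4.04 in those of DKO_TG. The points share 3 genotypes and the scaling of their libraries, so these values describe likeness only.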

How the data were processed

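The authors deposited 1 table of RPKM values for 54838 genes in 9 libraries. Per the submitters' processing notes, reads were handled on mm10 by cutadapt, by HISAT2 (2.1.0), by HTSeq (0.5.4p5) and by DESeq2 (1.2.8). How the RPKM were made and whether strand was used in counting is not given in the sources used here. Multiplied by exon length (GENCODE M21, which held 54723 of the identifiers), 97.8% of values above 0 came out as whole reads, within 0.01 read or a relative 1e-06. The library size behind the RPKM was 0.793 to 0.92 of the reads in WT and 1.034 to 1.11 in the other libraries, so the values carry a rescaling. Values of Hspa9 did not come out whole.

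The test was limma 3.58.1 (trended eBayes, R 4.3.3) applied to log2(RPKM + 0.5) in genes with at least 0.5 RPKM in at least 3 libraries, with all 9 libraries in 1 fit. Calls had a Benjamini-Hochberg adjusted p under 0.05 over 18889 genes. All log2 differences refer to this quantity, which understates changes of low genes. The members and lists were chosen with earlier results of these data known. The text names all members, both receptors, Malat1 and Neat1, on each list the genes with the 2 smallest adjusted p against DKO and the 2 smallest in DKO against WT, the 5 genes most like Hspd1 and the 5 most like the other 8; others are marked as chosen after their values were seen. 1 gene that this rule names is not reported here. Hspd1 was left untested against WT as well as against DKO, since its DKO and DKO_TG values raised the question. Alternatives changed the pseudocount, filter, scaling, samples, weights and replicate block, used voom on recovered reads (73 genes called higher and 241 lower in DKO_TG against DKO) or left out each library. Adding reads on copies was chosen after seeing the data. The fit was also run on simulated data in which most genes had the same mean level in all groups. The comparisons against WT, with their many calls, differ from that setting, and the outcome is not reported here.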

Additional observations from a re-analysis of the deposited data

How the results depend on the processing

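In DKO_TG against DKO, 1 of the 8 genes was called higher as deposited, 0 with no filter, with the replicate block and with only the 6 libraries compared, and 2 with TPM and with quantile normalization; leaving out 1 library gave 0 to 1. Of all genes, 0.371% were called higher with TPM and 0.731% with quantile normalization. Genes called higher overall numbered 94, against 21 with the block, 24 with the 6 libraries and 10 to 111 with 1 library left out. Those called lower numbered 327, against 162 with no filter, 78 with the block, 44 with the 6 libraries and 23 to 391. In DKO against WT the 7 members called lower became 1 with TPM, 2 with quantile normalization, 4 with the plain total and 6 to 7 with 1 library left out. The shares of all genes called lower under these scalings were 5.62%, 25.0% and 12.3%, in that order. Genes called higher and lower were 10041 and 1062 with TPM and 2314 lower with the plain total, and 5235 to 5988 and 3924 to 5216 with 1 left out. In DKO_TG against WT, 4 members were called higher with TPM and 3 with quantile normalization, and those called lower were 0 with TPM and the plain total, 1 with quantile normalization and 1 to 3 with 1 left out. Of all genes, 51.8% were called higher with TPM and 20.0% with quantile normalization. The shares called lower were 5.25% with TPM, 11.8% with the plain total and 23.8% with quantile normalization. Genes called there were 9776 higher and 991 lower with TPM, 2238 lower with the plain total, and 4586 to 5741 and 3044 to 4569 with 1 left out.

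Directions that turned for DKO_TG against WT were, with TPM, Hspd1 (0.290), Hspe1 (0.410), Hspa9 (0.301), Trap1 (0.157), Dnaja3 (0.467), Lonp1 (0.152) and Clpp (0.101). With quantile normalization they were Hspd1 (0.400), Hspe1 (0.551), Hspa9 (0.375), Trap1 (0.0443), Dnaja3 (0.0564) and Lonp1 (0.113). With the plain total they were Hspd1 (0.0262), Hspe1 (0.146), Hspa9 (0.0382) and Dnaja3 (0.205), and for Hspe1 also array weights (0.0232) and the fit without WT replicate 1 (range with 1 library left out -0.316 to 0.133). For DKO against WT, Trap1 (0.140), Dnaja3 (0.211) and Clpp (0.0424) turned with TPM, and Hspa9 (0.0128) and Trap1 (0.0664) with quantile normalization. For DKO_TG against DKO, Trap1 turned with quantile normalization (-0.0221), the plain total (-0.0101) and without DKO_TG replicate 3 (range -0.000933 to 0.0774), and Clpx without DKO replicate 1 (0.00760) or DKO_TG replicate 1 (0.0194; range -0.0350 to 0.0194). Scaling by TPM or the plain total moves the median of all genes, and other causes of these changes were not tested.

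Same-numbered libraries had correlations of -0.309 to 0.142 after group means were removed, and differently numbered ones -0.262 to 0.322. These values showed no pairing by replicate number, but with 3 libraries per group they cannot exclude it. With the replicate block Hspe1 was at an adjusted p of 0.0909 in DKO_TG against DKO and Clpp at 0.0811 in DKO_TG against WT; the block ended no other member's call. The voom fit gave no value for Hspa9. Among the members whose values came out as whole reads, which leaves out Hspa9, the fewest reads in a library were 1475 (Clpp).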

Other observations

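The gene most like Hspd1 outside the 9, Mob4, lies in the same stretch of chromosome 1. Mob4, a member of the MOB family of kinase-associated proteins, spans chr1:55131231-55154899 on the plus strand and is the nearest protein-coding gene downstream of Hspe1, 39924 bases beyond its end. It had 51.9, 38.2 and 31.9 RPKM in the WT libraries, 18.7, 21 and 13.7 in those of DKO and 40.9, 44.2 and 39.9 in those of DKO_TG. The DKO libraries were again below all others. Since Mob4 was picked for this pattern, its differences are not tested here. The neighbours were looked at after Mob4 had been seen.

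The other 5 protein-coding neighbours, 3 genes to the left of the pair and 2 beyond Mob4, did not pass the test in DKO_TG against DKO. Coq10b, a coenzyme Q-binding protein of mitochondria, ends 5133 bases from Hspd1 and had 6.44, 5.88 and 5.2 RPKM in the WT libraries, 5.10, 5.78 and 3.45 in those of DKO and 7.26, 7.09 and 6.43 in those of DKO_TG (log2 difference from DKO 0.52, adjusted p = 0.165). Its DKO_TG libraries lay above its DKO libraries, as they did for 12.1% of all genes. Sf3b1, a splicing factor subunit, averaged 16.6 ± 1.13 RPKM in the WT libraries, 35.6 ± 2.90 in those of DKO and 35.7 ± 0.58 in those of DKO_TG. It rose in DKO against WT by 1.08 (adjusted p = 2.8e-05), and DKO_TG minus DKO was 0.01 (adjusted p = 0.981). Beyond Mob4, Rftn2 was at -0.19 (adjusted p = 0.406) and Mars2, the mitochondrial methionyl-tRNA synthetase, at 0.36 (adjusted p = 0.0933). Ankrd44 was at -0.15 (adjusted p = 0.517). The DKO_TG libraries lay above those of DKO for Mars2 as well, and below them for Ankrd44, as for 12.1% of all genes in each direction.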
